A study of Rattus norvegicus with 9 samples.

Results

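Neonatal rat ventricular myocytes, a primary culture, were given 1 of 2 growth stimuli, phenylephrine or IGF1, and the transcriptomes of the 2 treatments were set directly against each other. Members of the comparison were the 6 samples that the labels name for these agents, out of 9 in the series: 3 received 50 µM phenylephrine and 3 received 10 nM IGF1. Both treatments lasted 48 hours. The 3 vehicle samples of the same cell type lent their spread to the model and supplied a background level. No strain, medium or age beyond "neonatal" is given in the labels, and no label ties samples to separate isolations. Each p-value therefore rests only on how far these particular samples scattered, and that scatter may be technical. Freshly isolated ventricular cultures can hold fibroblasts, endothelial cells and pericytes besides myocytes.

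Phenylephrine is an agonist of alpha-1 adrenergic receptors, which couple through Gq to phospholipase C, protein kinase C, intracellular calcium and the ERK cascade. In cultured neonatal myocytes it is the classical inducer of the fetal gene program that accompanies pressure-overload (pathological-type) growth. IGF1 acts through a receptor tyrosine kinase, the IRS adaptor proteins, PI3K and AKT, a pathway linked to the growth seen with exercise and postnatal development (physiological-type growth). AKT signalling keeps the FoxO transcription factors, which drive catabolic genes, out of the nucleus.

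Total counts ran from 31274396 to 33607863 reads with phenylephrine and from 31987197 to 46221459 with IGF1, so 1 CPM (read counts scaled to a common library size with TMM factors) stood for 29.1 to 47.7 reads. IGF1 replicate 1 lay apart from the other IGF1 samples. Between it and replicates 2 and 3, 287 and 244 genes differed over 1.5-fold, against 32 between replicates 2 and 3 and 14 to 30 between phenylephrine samples. It was above the mean of replicates 2 and 3 by over 1.5-fold in 176 genes and below it in 48, of 9397 genes that reached 5 CPM. The 10 most counted genes took 9.53% of its counts, near the 9.41% to 9.42% of the phenylephrine samples and above the 7.41% and 7.59% of IGF1 replicates 2 and 3. The labels give no batch, and a technical or biological source of this gap was not tested. Counts of calls and fold differences are therefore also given without this library.

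The cardiomyocyte label was borne out by the defining genes. Over 10 cardiomyocyte markers the summed level ran from 42800 to 43460 CPM with phenylephrine, and was 48980, 34850 and 35960 CPM in IGF1 replicates 1, 2 and 3 (26510 to 28440 CPM with vehicle). Of these markers, 1 was called higher with phenylephrine and 5 with IGF1 (3 and 6 without IGF1 replicate 1). The troponin T gene Tnnt2 was at 9400.0, 8971 and 9316 CPM with phenylephrine and at 11945, 10281 and 10746 CPM with IGF1. Markers of other cells were present at lower summed levels in every group. Of 11 fibroblast markers, led by the collagen gene Col1a1, 10 were tested and summed to 3329 to 3388 CPM with phenylephrine and 3321 to 3848 CPM with IGF1. Endothelial markers summed to 196.6 to 211.8 CPM against 123.0 to 125.3 CPM, and smooth muscle and pericyte markers to 7124 to 7371 CPM against 3712 to 5530 CPM. The smooth muscle and pericyte list includes the desmin gene Des, which is also on the thin filament and Z-disc list used below. Its sum therefore cannot be read as a level of smooth muscle cells or pericytes alone. Macrophage markers summed to between 73.5 and 94.0 CPM, epicardial markers to between 46.3 and 55.3 CPM and Schwann cell markers to between 15.1 and 17.8 CPM in the treated samples. The hemoglobin genes Hbb, Hba1 and Hba2 had at most 23 reads in any sample.

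A majority of the tested genes differed between the stimuli, about equally in each direction. Of 11873 genes tested with edgeR, 6437 (54.2%) passed an adjusted p of 0.05 and are called different here. Of these, 3215 (27.1%) were higher with phenylephrine and 3222 (27.1%) were higher with IGF1. Without IGF1 replicate 1, 12030 genes could be tested, and 3662 (30.4%) and 3638 (30.2%) were called in these directions. With and without it, 6245 genes kept their call and direction, 192 calls were lost, 1031 were gained and 0 turned around. Most differences were small. At least 2-fold, 399 genes were higher with phenylephrine and 633 with IGF1 (486 and 709 without IGF1 replicate 1), and at least 4-fold 65 and 133 (122 and 163 without it). The median log2 fold change over all genes, phenylephrine minus IGF1, was -0.0025 (-0.0040 without IGF1 replicate 1). When libraries were scaled by their total alone, that median moved to -0.11, and 2132 genes were called higher with phenylephrine and 4366 with IGF1, so that 32.8% of calls and not 49.9% were on the phenylephrine side. Small differences are thus read relative to the median gene. In bulk RNA, fewer cells of a type and less RNA per cell cannot be told apart.

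**Figure D1:**
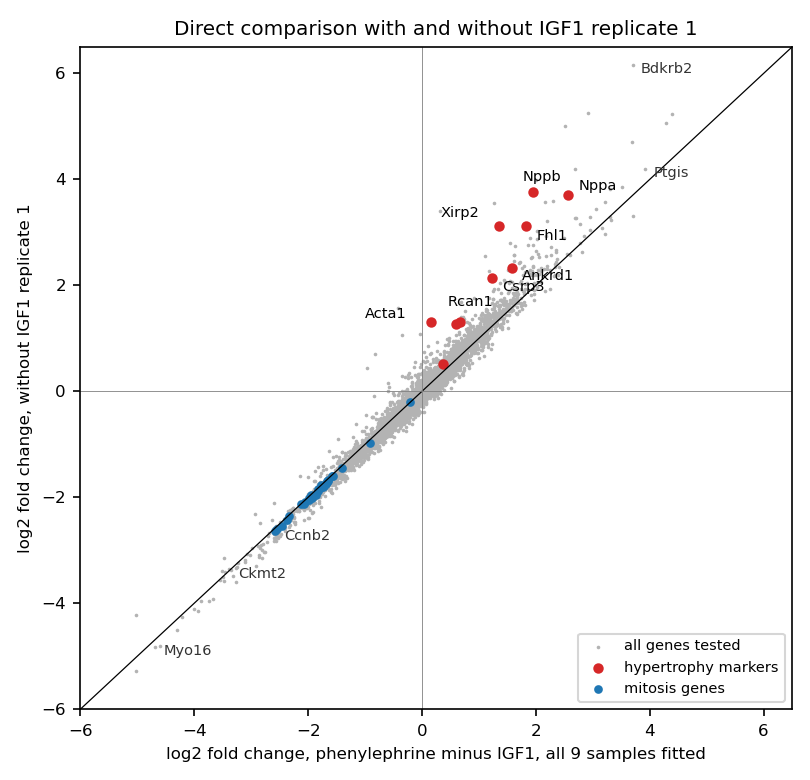
Log2 fold change of each of 11873 tested genes, phenylephrine minus IGF1, from all 9 samples (horizontal axis) and without IGF1 replicate 1 (vertical axis). Points above the diagonal line at the upper right (hypertrophy markers in red) grew on leaving the library out, whereas mitosis genes (blue) stayed near the line.

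To set the members of known programs against these shares, 39 lists with 854 distinct genes were used, of which 796 were tested. Of those, 290 were called higher with phenylephrine, 291 higher with IGF1 and 215 neither. Without IGF1 replicate 1 the counts were 336 and 314. The lists are described by these counts and their median log2 fold change. Each count of a list stands against the 27.1% of all genes called higher with phenylephrine and the 27.1% called higher with IGF1, and log2 values are phenylephrine minus IGF1, with the standard error from edgeR where it is given. The median over all 796 list genes was -0.023. Counts against vehicle likewise stand against the 27.9% of all genes called higher and 28.9% called lower with phenylephrine, and the 24.7% called higher and 23.4% called lower with IGF1. Without IGF1 replicate 1 these shares were 31.2%, 32.2%, 27.4% and 26.6%. Both comparisons with vehicle share the vehicle samples. Lists whose median lay within 0.11 of 0, such as those of calcineurin (0.03), the IGF axis (0.03), fatty acid synthesis (-0.0086), the clock (0.03), the matrix (0.08) and cardiac transcription factors (-0.07), are given no direction, since the shift between scalings was as large.

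**Figure D2:**
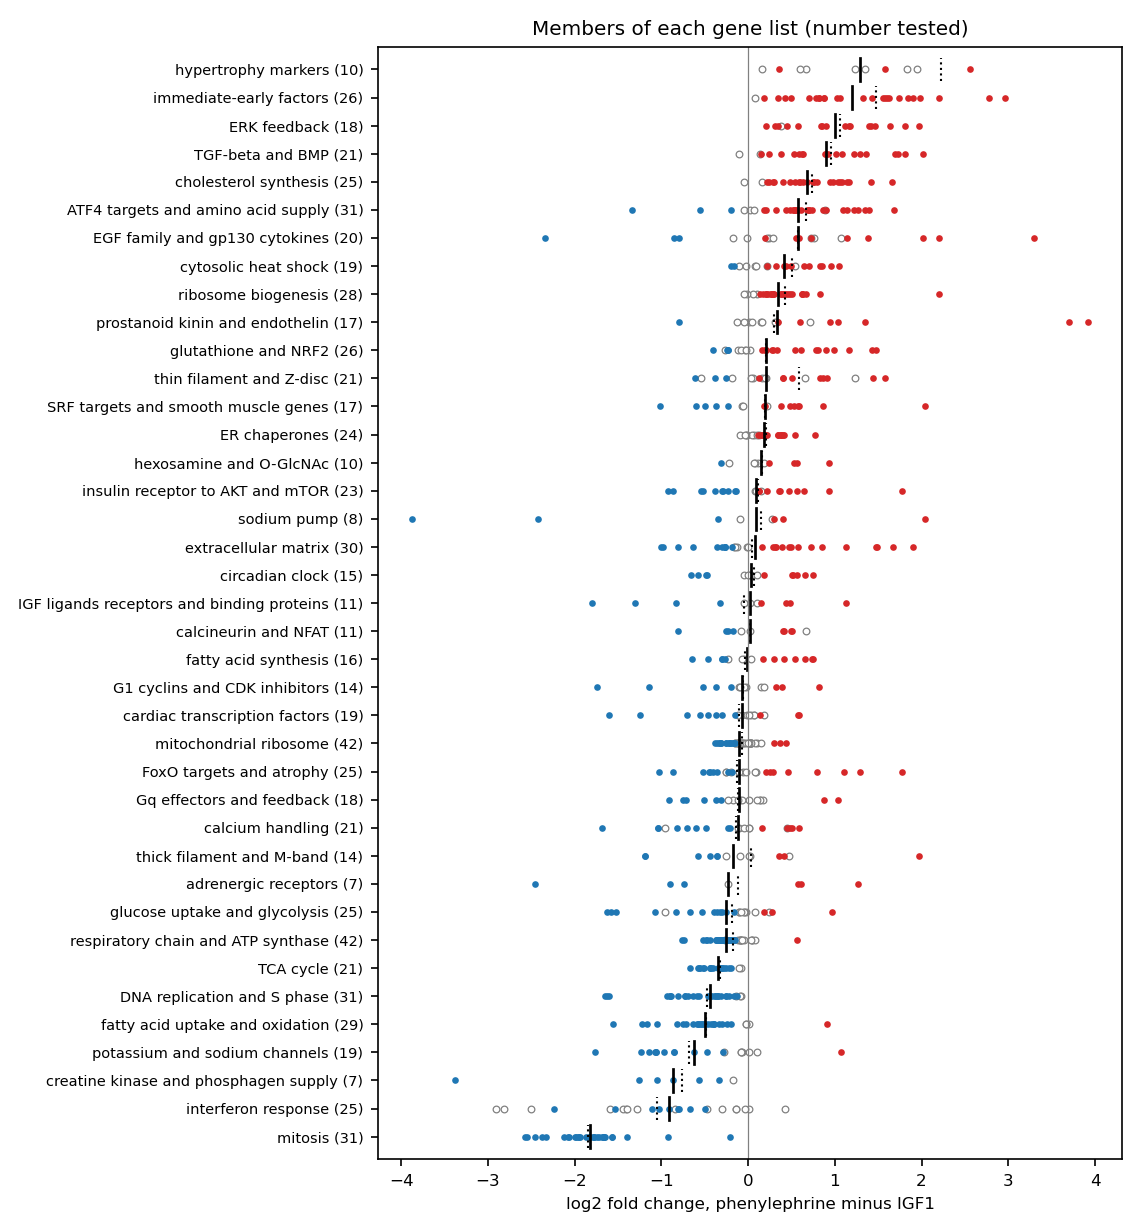
Log2 fold change of the tested members of 39 gene lists, phenylephrine minus IGF1, ordered by list median (solid bar; dotted bar without IGF1 replicate 1). Red and blue points are members called higher with phenylephrine and with IGF1 and open points are not called. Mitosis genes lie lowest, at a median of -1.82, and hypertrophy markers highest, at 1.29.

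Hypertrophy markers, the fetal and stretch-linked genes by which myocyte growth is usually scored, were higher with phenylephrine than in IGF1 replicates 2 and 3, whereas IGF1 replicate 1 lay above the other IGF1 samples in all 10, either short of the phenylephrine level, at it or beyond it. Of 10 tested markers, 3 were called higher with phenylephrine and 0 higher with IGF1. Without IGF1 replicate 1 all 10 were called higher, and the list's median rose from 1.29 to 2.23. In the fit of the phenylephrine and IGF1 samples alone 1 was called higher, by limma-voom 7 and by DESeq2 5. IGF1 replicate 1 exceeded the other IGF1 samples by a median of 2.03 on the log2 scale over this list.

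Nppa, which encodes atrial natriuretic peptide, was at 8014, 7792 and 8246 CPM with phenylephrine, at 2848, 591 and 630.0 CPM with IGF1 and at 724, 739 and 652 CPM with vehicle. The phenylephrine and IGF1 samples did not overlap, and IGF1 replicates 2 and 3 were close to vehicle. Nppa was 5.91-fold higher with phenylephrine (log2 2.56 ± 0.66, adjusted p = 0.0165), and 13.1-fold higher without IGF1 replicate 1. In the fit of the 6 samples alone its adjusted p was 0.0582. Nppb, the gene of brain natriuretic peptide, was at 1619.5, 1669.8 and 1603 CPM with phenylephrine, 1031, 119 and 121 CPM with IGF1 and 145, 154 and 135 CPM with vehicle. Again the first IGF1 sample stood far above the other two. The 3.86-fold difference was not called (adjusted p = 0.111), and became 13.6-fold without that sample (adjusted p = 1.1e-36).

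The skeletal alpha-actin gene Acta1, a fetal isoform in the heart, was the marker in which IGF1 replicate 1 most exceeded the phenylephrine samples. It stood at 3016, 3323 and 3272 CPM with phenylephrine, 6019, 1268 and 1317 CPM with IGF1 and 334, 368 and 356 CPM with vehicle. All treated samples were above vehicle, and the IGF1 samples lay on both sides of the phenylephrine samples. The log2 difference was 0.16 ± 0.62 (adjusted p = 0.852) with all samples and 1.31 without IGF1 replicate 1 (adjusted p = 7.64e-20), and it turned to -0.20 and -0.19 without IGF1 replicate 2 or 3. The near-identical cardiac actin gene Actc1 can share reads with Acta1, so both values are uncertain. Actc1 averaged 18460.0 ± 233 CPM (SD, n = 3) with phenylephrine and 11750.0 ± 5698 CPM with IGF1, a log2 difference of 0.65 that was not called (adjusted p = 0.125) and of 1.13 without the first sample (adjusted p = 1.57e-28).

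The promoter of Acta1 is shown because it carries a CArG box, the element that serum response factor is known to bind, on a gene that was above vehicle with both stimuli. The window holds the bases 250 before to 50 after the start of transcription, from RefSeq on the GRCr8 build (chr19:68784145-68784444, minus strand), printed 5′ to 3′ along the gene with the CArG box in capitals.
Acta1: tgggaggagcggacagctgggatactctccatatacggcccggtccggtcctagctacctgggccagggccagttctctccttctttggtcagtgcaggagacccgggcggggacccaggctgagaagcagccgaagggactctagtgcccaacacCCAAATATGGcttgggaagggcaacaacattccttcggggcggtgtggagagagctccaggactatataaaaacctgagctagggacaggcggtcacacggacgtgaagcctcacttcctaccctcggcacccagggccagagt
A CArG box on either strand was found in 23.5% of the 17 matched thin filament and Z-disc promoters, in 17.6% of 17 immediate-early promoters and in 1.21% of the 9552 promoters matched to tested genes. These are matches of letters only, not measured binding.

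The other stretch-linked markers had the same shape. Ankrd1, a cardiac ankyrin repeat protein of the titin spring region, was at 10131, 9992 and 9909 CPM with phenylephrine and at 6085, 1973 and 2012 CPM with IGF1. It was 2.98-fold higher with phenylephrine (adjusted p = 0.0269), but not called on leaving out phenylephrine replicate 1, 2 or 3 or IGF1 replicate 2 or 3 (adjusted p 0.0621 to 0.0727). Nor was it called in the 6 samples alone (adjusted p = 0.0803). In the absence of IGF1 replicate 1, the difference was 5.02-fold. The actin-binding Xin repeat gene Xirp2 was at 1104, 1217 and 1376 CPM against 1174, 135 and 147 CPM, and the muscle LIM protein gene Csrp3 at 1677, 1773 and 1682 CPM against 1404, 382 and 398 CPM. In both, replicate 1 of IGF1 lay at or near the phenylephrine level, and neither was called with it (adjusted p = 0.237 and 0.0928). Without it Xirp2 was 8.73-fold and Csrp3 4.38-fold higher with phenylephrine. Rcan1, a calcineurin inhibitor that calcineurin itself induces, followed the same course: 579.7, 575 and 585 CPM against 628, 231 and 239 CPM, with a log2 difference of 0.67 (adjusted p = 0.207) and of 1.3 without IGF1 replicate 1. Fhl1, a LIM protein of the sarcomere that responds to stretch, was at 5226, 5315 and 5321 CPM against 3239, 603 and 609 CPM, and was not called with IGF1 replicate 1 (adjusted p = 0.0659) but was 8.72-fold higher without it. The slow myosin heavy chain gene Myh7, also on the list, was 1.28-fold higher with phenylephrine (log2 0.36 ± 0.10, adjusted p = 0.0108), at 27614 ± 609 CPM against 21509 ± 3798 CPM (SD, n = 3). Once IGF1 replicate 1 was left out, the fold was 1.43 for Myh7.

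In genes that set phenylephrine apart from IGF1 replicates 2 and 3, IGF1 replicate 1 mostly lay toward phenylephrine. Over 697 genes of at least 5 CPM called at least 2-fold different without it, its level lay on the phenylephrine side of the mean of IGF1 replicates 2 and 3 in 619. In 103 it was nearer to the phenylephrine mean than to the other IGF1 samples. Of the 324 genes higher with phenylephrine, 98 were nearer to phenylephrine, and the median shift was 0.345 of the gap between the treatments. Of the 373 genes higher with IGF1, 5 were nearer, and the median shift was 0.136 of the gap. The genes were chosen by the gap of replicates 2 and 3 to phenylephrine, a choice that by itself favours such a shift, so the shares are a description with no test. Over some other lists the library was close to replicates 2 and 3. Its median log2 offset was -0.0091 for ER chaperones and -0.00098 for hexosamine genes. Others were offset, by 0.50 for thin filament and Z-disc genes and 0.46 for immediate-early genes. The offset was 0.34 for ATF4 targets. It was -0.33 for interferon response genes, but in that list IGF1 replicate 2 was the sample apart. Those genes summed to 494.2, 873.7 and 489.8 CPM in IGF1 replicates 1, 2 and 3.

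**Figure D3:**
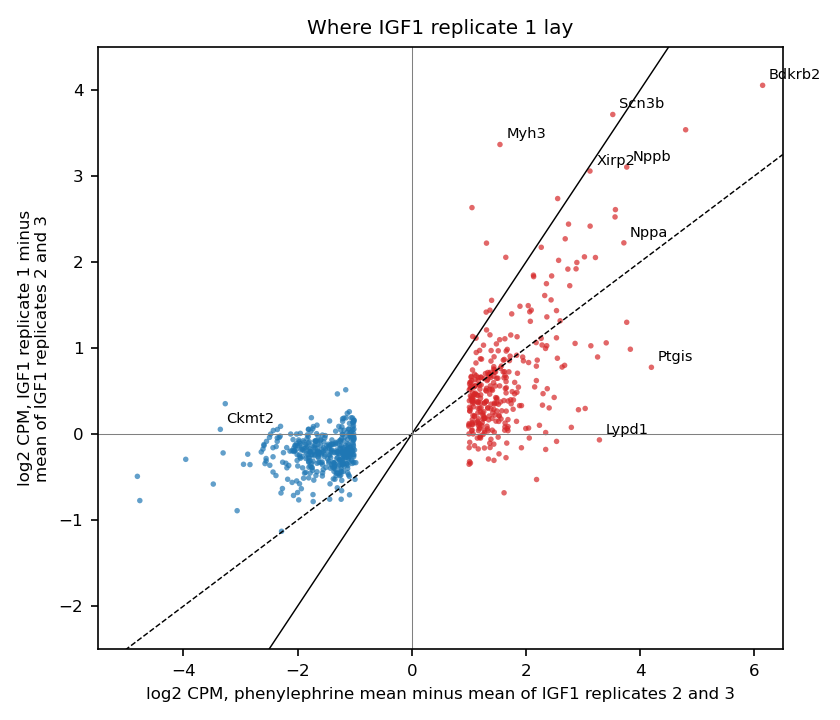
For 697 genes of at least 5 CPM called at least 2-fold different without IGF1 replicate 1, the log2 CPM of that sample minus the mean of IGF1 replicates 2 and 3 (vertical) against the phenylephrine mean minus the same mean (horizontal). On the solid line the sample would equal phenylephrine, on the dashed line it would lie midway, and at 0 it would equal the other IGF1 samples; genes higher with phenylephrine are red and genes higher with IGF1 blue.

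The genes in which that library was farthest from the other IGF1 samples included Scn3b, a sodium channel beta subunit, and the polyamine regulator Azin2. Scn3b was at 50.8, 53.2 and 67.8 CPM with phenylephrine and 65.0, 4.86 and 4.95 CPM with IGF1, and Azin2 at 13.7, 16.1 and 14.0 CPM and 16.5, 2.08 and 2.85 CPM. In both genes replicate 1 was at the phenylephrine level and the other IGF1 samples were near vehicle, at 7.01 and 3.26 CPM. Myh3 (embryonic myosin heavy chain), Sypl2 (a triad membrane protein) and Tceal7 were above every phenylephrine sample in that library. Their log2 differences of -0.43, -0.34 and -0.82 were not called (adjusted p = 0.739, 0.733 and 0.434) and turned to 1.57, 1.07 and 0.70, all called, without it. Scn3b and Azin2 were likewise not called with it (adjusted p = 0.321 and 0.26) and 11.7- and 5.90-fold higher with phenylephrine without it.

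Among the genes with the largest differences on the phenylephrine side, Ptgis, prostacyclin synthase, was at 219, 223 and 220.4 CPM with phenylephrine, 20.5, 12.2 and 11.8 CPM with IGF1 and 21.5, 17.0 and 17.2 CPM with vehicle. The groups were far apart, and IGF1 and vehicle overlapped. Ptgis was 15.2-fold higher with phenylephrine (log2 3.92 ± 0.22, adjusted p = 9.08e-06) and 18.4-fold without IGF1 replicate 1. Bdkrb2, the bradykinin receptor B2 gene, was at 59.5, 66.0 and 63.8 CPM against 14.7, 0.632 and 1.11 CPM. Its difference depended on replicate 1 for its size, being 13.0-fold with it (adjusted p = 0.0145) and 71.5-fold without it, and it was not called in the 6 samples alone (adjusted p = 0.0540). Lypd1, a modulator of nicotinic receptors, was at 145, 144 and 148 CPM against 14.2, 14.3 and 15.4 CPM. All IGF1 samples were alike here, and the difference was 9.92-fold with and 9.77-fold without the first (adjusted p = 7.01e-15 with it).

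Inha, the inhibin alpha subunit, was at 67.8, 68.9 and 74.2 CPM with phenylephrine and 10.5, 7.90 and 9.16 CPM with IGF1, a 7.71-fold difference (8.22-fold without IGF1 replicate 1). Further genes of this group were Ptprn, a dense-core vesicle phosphatase (7.20-fold), the synaptotagmin Syt12 (11.4-fold) and the ring finger gene Rnf39 (8.34-fold). With that library left out, these were 7.66-, 14.5- and 10.9-fold. Stmn4, a neuronal stathmin, was 7.57-fold higher (adjusted p = 0.0283) at only 4.74, 6.52 and 3.94 CPM, and lost its call without phenylephrine replicate 1 or 2 or IGF1 replicate 2 or 3 (adjusted p 0.0548 to 0.0753). Stmn4 was also not called in the 6 samples alone or with the replicate number as a block (adjusted p = 0.0663 and 0.0505). On leaving out IGF1 replicate 1, it was 38.0-fold higher. By level in CPM, the largest differences besides Nppa and Ankrd1 were those of Ctgf, Sorbs2 and Des. Ctgf, the matricellular growth factor also called CCN2, was at 2621, 2742 and 2677 CPM against 1439, 360.4 and 362 CPM and was 3.72-fold higher (adjusted p = 0.0311). It was not called when any library other than IGF1 replicate 1 was left out (adjusted p 0.0534 to 0.0777), and was 7.42-fold higher without that one. Ctgf was also not called in the 6 samples alone (adjusted p = 0.0896). Des, the muscle intermediate filament desmin, was 1.82-fold higher, and Sorbs2, a Z-disc adaptor, 2.26-fold (2.19- and 2.71-fold without IGF1 replicate 1).

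Immediate-early genes, first-line genes of receptor signalling, were higher with phenylephrine at 48 hours. Most on the list encode transcription factors, but it also holds others, such as Ctgf. Of 26 tested, 25 were called higher with phenylephrine and 0 with IGF1 (24 and 0 without IGF1 replicate 1). Their median log2 fold change was 1.19 (1.48 without). Against vehicle, 19 of the 26 were called higher and 2 lower with phenylephrine (background 27.9% and 28.9%). With IGF1, 0 were called higher and 12 lower than vehicle (background 24.7% and 23.4%). Without IGF1 replicate 1 these counts were 20 and 2, and 0 and 23. The orphan nuclear receptor gene Nr4a3 was at 16.8, 18.4 and 18.7 CPM with phenylephrine, 3.46, 1.67 and 2.01 CPM with IGF1 and 2.39, 2.13 and 2.91 CPM with vehicle, a 7.78-fold difference (adjusted p = 5.98e-08; 9.72-fold without). Maff, a small MAF bZIP factor, was at 57.7, 55.6 and 60.3 CPM, 8.76, 8.26 and 8.32 CPM and 35.1, 36.4 and 33.3 CPM in the same order. Its IGF1 samples lay below vehicle and its phenylephrine samples above, so the 6.87-fold difference (adjusted p = 2.2e-13) had a part on each side of vehicle. Fos, an AP-1 subunit, was at 26.5, 26.9 and 28.1 CPM against 7.08, 6.48 and 7.06 CPM and Egr1, a zinc finger factor, at 46.8, 44.4 and 46.4 CPM against 18.6, 14.1 and 14.3 CPM (3.96- and 2.95-fold). These too were above vehicle with phenylephrine and below it with IGF1, their vehicle means being 11.4 and 24.8 CPM. Myc, a growth regulator, was 4.58-fold higher with phenylephrine at 46.4, 43.6 and 42.5 CPM against 12.2, 7.75 and 9.28 CPM (5.18-fold without). With IGF1 replicate 1 left out, the fold became 6.98 for Maff, 4.01 for Fos and 3.23 for Egr1.

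Genes of the ERK feedback list paralleled the immediate-early genes. This list holds feedback inhibitors of the ERK cascade, which ERK activity induces, but also others, such as the ETS factor gene Etv4. Of 18 tested, 17 were called higher with phenylephrine and 0 with IGF1, with and without IGF1 replicate 1, at a median log2 of 1.01 (1.06 without). Against vehicle, 13 of the 18 were called higher and 1 lower with phenylephrine (background 27.9% and 28.9%). With IGF1, 0 were called higher and 14 lower than vehicle (background 24.7% and 23.4%). Without IGF1 replicate 1 these counts were 13 and 2, and 1 and 14. Dusp6, an ERK-specific phosphatase, was at 37.2, 35.8 and 36.9 CPM with phenylephrine, 18.3, 11.6 and 11.7 CPM with IGF1 and 21.6, 20.4 and 18.9 CPM with vehicle. No sample of either treatment overlapped the other, and 2 of the 3 IGF1 samples were well below vehicle. Dusp6 was 2.68-fold and the phosphatase gene Dusp4 3.92-fold higher (3.15- and 4.56-fold without IGF1 replicate 1). Etv4, an ETS factor downstream of ERK, was 3.11-fold higher, at 22.1 ± 2.40 CPM against 7.12 ± 0.776 CPM (SD, n = 3). On dropping IGF1 replicate 1 the fold difference was 3.22 for Etv4.

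Genes of peptide and lipid mediators and their receptors went in both directions, more of them to the phenylephrine side. Of 20 EGF family and gp130 cytokine genes, 9 were called higher with phenylephrine and 3 with IGF1 (8 and 3 without IGF1 replicate 1), at a median log2 of 0.57 with and without. The EGF receptor ligand gene Areg was at 18.5, 17.8 and 18.4 CPM against 3.26, 1.31 and 1.28 CPM and 4.49, 4.33 and 4.65 CPM with vehicle, a 9.87-fold difference (14.1-fold without). Hbegf, the heparin-binding ligand of the same receptor, was at 161, 159 and 165 CPM against 82.8, 19.2 and 20.5 CPM. It was 4.06-fold higher (adjusted p = 0.0246) and lost its call without phenylephrine replicate 1, 2 or 3 or IGF1 replicate 2 or 3 (adjusted p 0.0582 to 0.0670), whereas it was 8.15-fold higher without IGF1 replicate 1. Hbegf also lost its call in the 6 samples alone (adjusted p = 0.0790). Erbb4, the neuregulin receptor of myocytes, went the other way, at 9.51, 11.0 and 9.47 CPM against 14.6, 19.0 and 20.3 CPM (1.81-fold higher with IGF1). Tnfrsf12a, the Tweak receptor gene, was 4.59-fold higher with phenylephrine, and 9.30-fold higher without IGF1 replicate 1. It was not called without IGF1 replicate 3 or in the 6 samples alone (adjusted p = 0.0527 and 0.0665). Among 17 prostanoid, kinin and endothelin genes, 7 were called higher with phenylephrine and 1 with IGF1, with and without IGF1 replicate 1, at a median log2 of 0.33 (0.30). They included Edn1, the endothelin precursor, at 17.6, 17.7 and 19.6 CPM against 8.62, 5.69 and 7.40 CPM (2.55-fold), while its receptor gene Ednra was higher with IGF1, at 105, 105 and 110.4 CPM against 170.3, 195 and 194 CPM (1.74-fold). The same folds without IGF1 replicate 1 were 1.97 for Erbb4, 2.79 for Edn1 and 1.82 for Ednra.

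**Figure D4:**
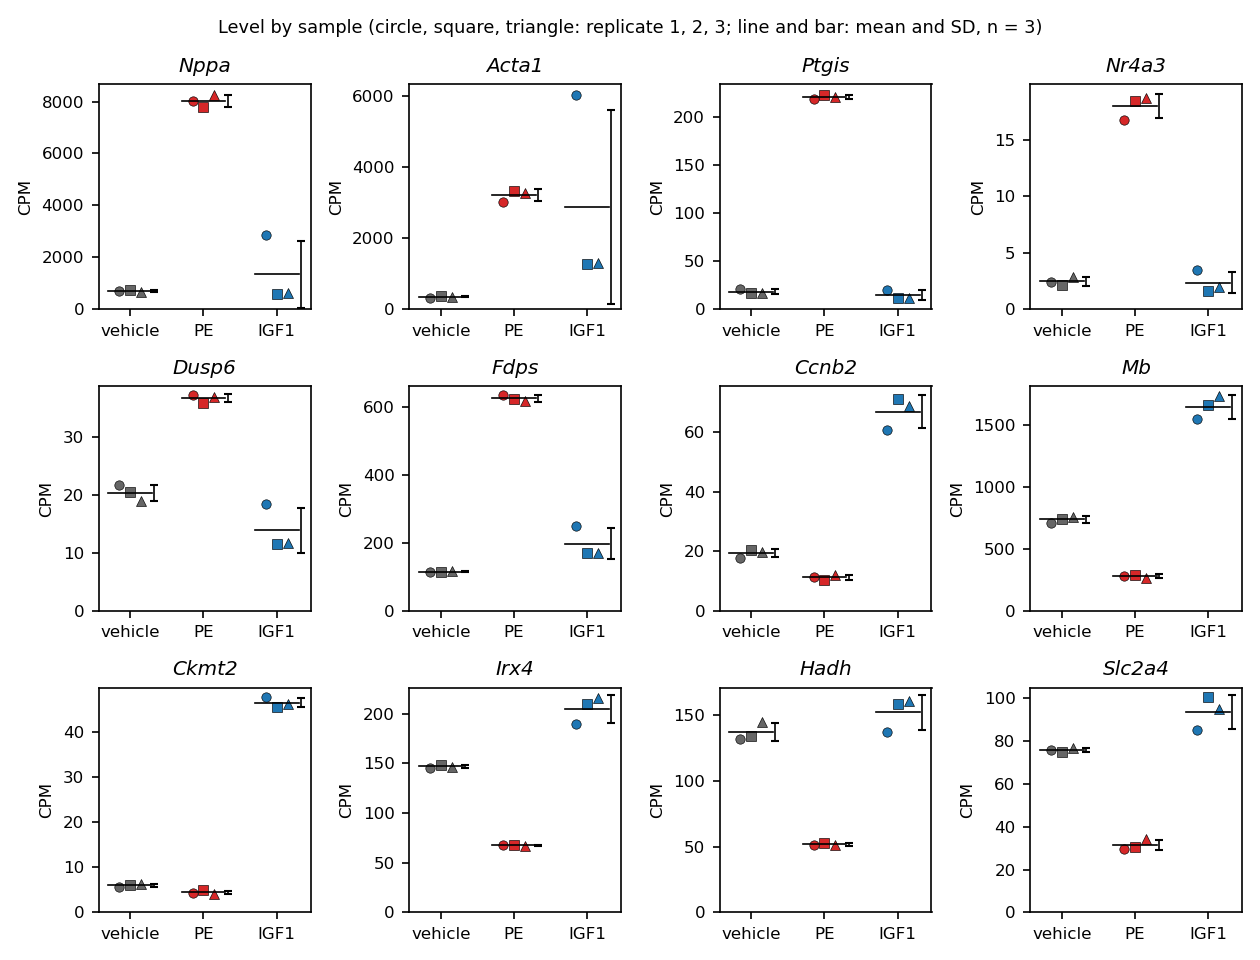
CPM of 12 genes in each vehicle, phenylephrine (PE) and IGF1 sample, on linear axes from 0, with mean and SD bars (n = 3). IGF1 replicate 1 (blue circle) stood apart from replicates 2 and 3 for Nppa and Acta1, and for Ckmt2, Mb and Hadh all IGF1 samples lay far above the phenylephrine samples.

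The receptors for phenylephrine differed by subtype. Among 7 adrenergic receptor genes, 3 were called higher in each direction, with and without IGF1 replicate 1. The median log2 was -0.23 (-0.12). Adra2a, called on the phenylephrine side, lost its call in 9 alternatives (adjusted p 0.0651 to 0.174). Adra1a was at 19.2, 23.3 and 21.6 CPM with phenylephrine and 11.3, 15.2 and 16.4 CPM with IGF1 (1.49-fold higher with phenylephrine, adjusted p = 7.0e-04). Adra1b was at 15.5, 13.6 and 17.0 CPM against 26.2, 30.8 and 28.8 CPM (1.86-fold higher with IGF1) and Adra1d at 0.515, 1.09 and 1.10 CPM against 4.97, 4.45 and 5.55 CPM (5.50-fold higher with IGF1). For the latter pair, IGF1 samples were near or above the vehicle means of 29.9 and 3.39 CPM. Of 18 Gq effector and feedback genes 2 were called higher with phenylephrine and 6 with IGF1 (3 and 7 without IGF1 replicate 1). Rgs2, which shuts off Gq, was on the first side at 23.4, 22.2 and 18.9 CPM against 11.6, 12.1 and 11.5 CPM (1.83-fold), and the diacylglycerol kinase gene Dgkz on the second at 73.4, 73.4 and 66.9 CPM against 108, 128 and 123 CPM (1.68-fold). Rgs5, a related regulator that also marks pericytes, was the other call on the phenylephrine side. It was not called without vehicle replicate 1 or 3, without phenylephrine replicate 1, 2 or 3, without IGF1 replicate 2 or 3, with scaling by library totals or by DESeq2 (adjusted p 0.0511 to 0.202). In the calcineurin and NFAT list, 4 of 11 were called in each direction (5 and 4 without IGF1 replicate 1), Nfatc1 being 1.41-fold higher with phenylephrine and Rcan2 1.76-fold higher with IGF1. Leaving out IGF1 replicate 1 put the fold at 1.35 for Adra1a, 1.93 for Adra1b, 5.51 for Adra1d, 1.82 for Rgs2, 1.76 for Dgkz, 1.40 for Nfatc1 and 1.78 for Rcan2.

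Genes of the IGF1 receptor and its first adaptor were lower under IGF1 itself. Igf1r was at 94.0, 105 and 101 CPM with phenylephrine, 57.0, 40.8 and 39.9 CPM with IGF1 and 66.3, 75.4 and 66.9 CPM with vehicle. Phenylephrine samples were all above vehicle and IGF1 samples all below it, and the difference was 2.19-fold (adjusted p = 2.21e-04; 2.48-fold without IGF1 replicate 1). Irs2, the adaptor, was at 273, 295 and 282 CPM, 96.2, 75.1 and 78.0 CPM and 177, 184 and 172 CPM in the same order, a 3.42-fold difference (adjusted p = 5.52e-09). Insr, the insulin receptor gene, was at 137, 146 and 139 CPM against 112, 103 and 96.9 CPM (1.35-fold). Among the IGF binding proteins, which hold IGF1 in the medium, Igfbp3 was at 28.4, 27.3 and 25.2 CPM against 70.6, 101 and 109.9 CPM and Igfbp5 at 7.35, 7.07 and 7.46 CPM against 15.1, 19.9 and 18.9 CPM, so that both were higher with IGF1 (3.49- and 2.48-fold). Igfbp2 went the other way and was called higher with phenylephrine, a call lost with scaling by library totals (log2 0.36, adjusted p = 0.0709). Over the whole IGF list of 11, 4 were called in each direction (5 and 4 without IGF1 replicate 1), and 2 on the phenylephrine side with scaling by library totals. In the fit lacking IGF1 replicate 1, folds were 3.70 for Irs2, 1.41 for Insr, 3.92 for Igfbp3 and 2.66 for Igfbp5.

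Downstream of the receptor no side prevailed. Of 23 insulin receptor, AKT and mTOR genes 10 were called higher with phenylephrine and 10 with IGF1 (11 and 10 without). The inhibitory and regulatory PI3K genes Pik3ip1 and Pik3r1 were on the IGF1 side, at 50.6, 46.7 and 52.1 CPM against 72.8, 95.7 and 102 CPM and 27.7, 29.9 and 25.6 CPM against 47.8, 54.6 and 55.5 CPM (1.82- and 1.90-fold). Eif4ebp1, a translational repressor that mTOR inactivates, was 1.90-fold higher with phenylephrine. Of 25 FoxO targets and atrophy genes 8 were called higher with phenylephrine and 9 with IGF1 (9 and 13 without), at a median of -0.11 (-0.12), and 5 and 14 with scaling by library totals. Against vehicle, 18 of 25 were called lower and 4 higher with phenylephrine (background 28.9% and 27.9%), and 20 lower and 3 higher with IGF1 (background 23.4% and 24.7%). Without IGF1 replicate 1 these counts were 18 and 6, and 19 and 3. Fbxo32, the muscle ubiquitin ligase atrogin-1, was at 31.1, 32.8 and 30.6 CPM, 30.9, 41.3 and 40.0 CPM and 73.9, 82.9 and 71.9 CPM with phenylephrine, IGF1 and vehicle. The 2 treatments overlapped, and the log2 difference of -0.25 ± 0.10 was not called (adjusted p = 0.0518; 5.0e-07 without IGF1 replicate 1). Txnip, a brake on glucose uptake, was at 773, 793 and 755 CPM, 530.4, 569.6 and 587 CPM and 1461, 1512 and 1562 CPM in this order, lower with both agents and lowest with IGF1 (1.38-fold between them). Sesn3 was on the other side, at 19.7, 23.7 and 21.0 CPM against 37.1, 47.4 and 46.9 CPM (2.04-fold), and Gabarapl1, an autophagy gene, was 2.16-fold higher with phenylephrine. Once IGF1 replicate 1 was left out, the fold was 1.99 for Pik3ip1, 1.98 for Pik3r1, 2.24 for Eif4ebp1, 1.34 for Txnip, 2.19 for Sesn3 and 2.32 for Gabarapl1.

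The largest differences on the IGF1 side included those of a myosin, a Z-disc protein and a creatine kinase. Myo16, an unconventional myosin, was at 0.618, 0.288 and 0.808 CPM with phenylephrine, 11.5, 14.6 and 17.9 CPM with IGF1 and 1.92, 1.2 and 1.74 CPM with vehicle. It was 25.7-fold higher with IGF1 (log2 -4.68 ± 0.28, adjusted p = 2.66e-08). Ky, a muscle protease-like protein of the Z-disc, was at 0.446, 0.863 and 0.452, 9.68, 15.9 and 17.3 and 3.86, 4.25 and 3.57 CPM in the same order and was 24.2-fold higher. Both were below vehicle in every phenylephrine sample and above it in every IGF1 sample. Leaving out IGF1 replicate 1 gave 28.4- and 28.0-fold.

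Ckmt2, the sarcomeric mitochondrial creatine kinase, was at 4.36, 4.89 and 4.14 CPM against 47.8, 45.8 and 46.3 CPM, and at 5.64, 5.99 and 6.36 CPM with vehicle. All 3 IGF1 samples were alike, and the 10.4-fold difference (adjusted p = 4.77e-13) was 10.3-fold without the first. Mb, the oxygen-binding protein myoglobin, was at 285, 293 and 268 CPM with phenylephrine, 1544, 1660.0 and 1730.4 CPM with IGF1 and 710.2, 740.4 and 760.1 CPM with vehicle. It was below vehicle with phenylephrine and above it with IGF1, and differed 5.84-fold between them (log2 -2.55 ± 0.05, adjusted p = 1.88e-13; 6.02-fold without).

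Others of this group were the perinatal myosin heavy chain gene Myh8 (11.4-fold), the piRNA-pathway gene Piwil2 (9.95-fold), the DNA helicase Pif1 (9.59-fold), the adenylyl cyclase Adcy1 (7.27-fold) and the calcium-binding mitochondrial protein gene Efhd1 (7.09-fold). Fam81a and Doc2g were 7.21- and 6.64-fold higher. When IGF1 replicate 1 was dropped, these 7 ranged from 7.15-fold (Doc2g) to 11.1-fold (Piwil2). By level, the largest differences on the IGF1 side were those of Atp5b and Atp5a1, subunits of ATP synthase, Tnnt2, Atp2a2, Col3a1 and Mb. Atp5b was at 5629, 5473 and 5475 CPM against 8366, 7576 and 7855 CPM, 1.44-fold higher with IGF1 (adjusted p = 5.58e-07). With IGF1 replicate 1 left out, the fold became 10.5 for Myh8, 10.1 for Pif1, 8.51 for Adcy1, 7.45 for Efhd1, 7.75 for Fam81a and 1.40 for Atp5b.

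The mitotic program had the list median farthest from 0 with all samples, whereas without IGF1 replicate 1 the hypertrophy markers were farther, at 2.23. All 31 tested mitosis genes were called higher with IGF1, with and without IGF1 replicate 1, at a median log2 of -1.82 (-1.84 without), against 27.1% of all genes. In none of the 31 did the 3 phenylephrine and 3 IGF1 samples overlap, which held for 58.8% of all tested genes; 50.3% of all genes were without overlap and called the same way with and without IGF1 replicate 1. Ccnb2, a cyclin of the entry into mitosis, was at 11.3, 10.5 and 11.9 CPM with phenylephrine, 60.7, 71.2 and 69.0 CPM with IGF1 and 18.0, 20.5 and 19.8 CPM with vehicle. Its phenylephrine samples were below vehicle and its IGF1 samples above, a 5.97-fold difference (log2 -2.58 ± 0.08, adjusted p = 3.5e-12). Kif20a, a kinesin of cell division, was at 32.9, 33.8 and 32.2 CPM against 183, 204 and 194 CPM (5.87-fold). Top2a, the DNA topoisomerase of dividing cells, was at 70.4, 68.4 and 75.1 CPM against 273, 325 and 301 CPM (4.20-fold) and Cdk1, the mitotic kinase, at 30.6, 28.4 and 32.7 CPM against 87.8, 93.6 and 91.0 CPM (2.97-fold). Mki67, the source of the Ki-67 antigen, was 3.64-fold higher with IGF1. Against vehicle, 27 of the 31 were called lower with phenylephrine (background 28.9%) and 31 higher with IGF1 (background 24.7%), with and without IGF1 replicate 1. Which cells carried these transcripts cannot be told apart in bulk RNA. Fibroblast markers were split, with 1 of 10 called higher with phenylephrine and 3 with IGF1 (1 and 4 without IGF1 replicate 1). On dropping IGF1 replicate 1 the fold differences were 6.24 for Ccnb2, 6.03 for Kif20a, 4.39 for Top2a, 3.02 for Cdk1 and 3.87 for Mki67.

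Mitotic promoters are known for 2 elements, the CCAAT box bound by NF-Y and the TTTGAA core of the CHR element bound by the DREAM complex. Cdk1 and Top2a are shown because both elements occur in them and their transcripts moved together. CCAAT and TTTGAA, on either strand, are in capitals (GRCr8, chr20:19265043-19265342 on the plus strand and chr10:84473044-84473343 on the minus strand; ATTGG and TTCAAA are the other-strand forms).
Cdk1: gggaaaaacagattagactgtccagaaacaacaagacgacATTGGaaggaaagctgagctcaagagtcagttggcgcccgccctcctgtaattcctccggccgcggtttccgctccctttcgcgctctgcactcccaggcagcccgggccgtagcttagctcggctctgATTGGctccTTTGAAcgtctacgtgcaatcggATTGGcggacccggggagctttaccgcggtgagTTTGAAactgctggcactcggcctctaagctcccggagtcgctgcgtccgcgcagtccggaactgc
Top2a: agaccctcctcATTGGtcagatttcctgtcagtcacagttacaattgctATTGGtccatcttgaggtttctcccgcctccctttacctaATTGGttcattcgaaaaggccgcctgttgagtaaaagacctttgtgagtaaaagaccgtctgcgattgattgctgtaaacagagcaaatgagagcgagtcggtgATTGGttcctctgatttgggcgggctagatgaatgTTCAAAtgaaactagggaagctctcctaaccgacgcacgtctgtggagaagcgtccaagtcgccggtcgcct
No marked match overlaps another in either window. Of 26 mitosis genes with a matched promoter, 80.8% held CCAAT, 69.2% TTTGAA and 61.5% both. Among the 9552 matched promoters of tested genes the shares were 37.3%, 11.3% and 4.57%. CCAAT was no less frequent in 2 lists with more calls on the phenylephrine side. It was in 89.5% of 19 ER chaperone promoters and 82.4% of 17 cholesterol synthesis promoters. TTTGAA was in 0% and 11.8% of these.

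DNA replication genes were also higher with IGF1. Of 31 tested, 28 were called higher with IGF1 and 0 with phenylephrine (29 and 0 without IGF1 replicate 1), at a median log2 of -0.44 (-0.48 without). Rrm2, a ribonucleotide reductase subunit, was at 42.0, 41.2 and 43.8 CPM with phenylephrine and 116, 144 and 132 CPM with IGF1 (3.09-fold) and Ccna2, the S-phase cyclin, at 20.3, 19.5 and 21.3 CPM and 58.2, 68.3 and 65.5 CPM (3.15-fold). Tk1, thymidine kinase, was 3.05-fold higher with IGF1. Mcm6, a subunit of the replicative helicase, differed by less, at 62.3, 55.1 and 59.8 CPM against 75.9, 75.8 and 76.2 CPM (1.29-fold, adjusted p = 1.4e-04). In each of these genes the IGF1 samples were all above the phenylephrine samples. The same folds without IGF1 replicate 1 were 3.26 for Rrm2, 3.29 for Ccna2, 3.13 for Tk1 and 1.29 for Mcm6.

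Mcm6 is shown as an S-phase promoter with E2F-type letters. The searched forms TTTGGCGC and TTTCGCGC overlap by 4 bases in it and are in capitals as a single stretch (GRCr8, chr13:42404303-42404602, minus strand; GCGCGAAA is the other-strand form of the second).
Mcm6: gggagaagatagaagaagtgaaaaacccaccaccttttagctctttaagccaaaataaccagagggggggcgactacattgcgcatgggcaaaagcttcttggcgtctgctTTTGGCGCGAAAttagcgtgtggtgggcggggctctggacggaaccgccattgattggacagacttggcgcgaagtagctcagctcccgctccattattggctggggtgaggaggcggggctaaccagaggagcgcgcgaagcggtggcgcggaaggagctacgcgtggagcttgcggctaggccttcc
TTTGGCGC was in 30.4% and TTTCGCGC in 30.4% of 23 matched S-phase promoters, against 0.963% and 0.586% of all matched promoters. Of the 14 G1 cyclins and CDK inhibitors, 3 were called higher with phenylephrine and 5 with IGF1 (3 and 7 without IGF1 replicate 1), and 8 with IGF1 when scaled by library totals. Ccnd1, a G1 cyclin, was at 131, 129 and 125 CPM against 115, 86.4 and 92.8 CPM (1.31-fold higher with phenylephrine), whereas the inhibitor genes Cdkn2c and Cdkn1c were 3.34- and 2.21-fold higher with IGF1. Leaving out IGF1 replicate 1 put the fold at 1.43 for Ccnd1, 3.46 for Cdkn2c and 2.30 for Cdkn1c.

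Sarcomere genes went in both directions. In the thick filament and M-band list of 14, 3 were called higher with phenylephrine and 6 with IGF1 (6 and 6 without IGF1 replicate 1), at a median log2 of -0.18 (0.04). Myom2, an M-band protein, was at 1892, 1805 and 1834 CPM with phenylephrine, 436, 480.5 and 493 CPM with IGF1 and 2595, 2726 and 2742 CPM with vehicle. All treated samples were below vehicle and the IGF1 samples lowest, leaving it 3.92-fold higher with phenylephrine (adjusted p = 1.2e-12; 3.79-fold without). The adult rodent myosin Myh6 was at 1643, 1633 and 1622 CPM against 2082, 2091 and 2086 CPM and 1285, 1389 and 1304 CPM with vehicle. It was above vehicle with both agents and 1.28-fold higher with IGF1 (adjusted p = 7.03e-06), the reverse of Myh7, although reads of the 2 can be confused by their likeness. Myh7b was 2.27-fold higher with IGF1, at 64.2, 68.9 and 68.0 CPM against 171, 140.1 and 146 CPM. In the fit lacking IGF1 replicate 1, folds were 1.28 for Myh6 and 2.14 for Myh7b.

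Of 21 thin filament and Z-disc genes, 9 were called higher with phenylephrine and 3 with IGF1 (16 and 4 without IGF1 replicate 1, and 5 on the phenylephrine side without phenylephrine replicate 1 or 2 or IGF1 replicate 2 or 3). Their median log2 was 0.20 (0.59 without IGF1 replicate 1). Pdlim5, a Z-disc scaffold, was at 1184, 1256 and 1193 CPM against 561, 391 and 387 CPM (2.71-fold) and Actn2, alpha-actinin of the Z-disc, at 4816, 4841 and 4804 CPM against 3872, 3123 and 3155 CPM (1.42-fold). The filamin gene Flnc was 1.88-fold higher (2.25-fold without). The cardiac troponin I gene Tnni3, the adult isoform, was higher with IGF1 at 1627, 1574 and 1541 CPM against 2639, 2285 and 2348 CPM (1.53-fold), and so was the fetal isoform Tnni1 (1.31-fold). Once IGF1 replicate 1 was left out, the fold was 3.11 for Pdlim5, 1.54 for Actn2, 1.47 for Tnni3 and 1.26 for Tnni1.

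Potassium and sodium channel genes were mostly on the IGF1 side, whereas calcium handling genes went both ways. Of 21 calcium genes 5 were called higher with phenylephrine and 9 with IGF1 (7 and 11 without IGF1 replicate 1), at a median log2 of -0.11 (-0.13), about as large as the shift between scalings. Atp2a2, the SERCA pump that refills the sarcoplasmic reticulum, was at 4278, 4159.9 and 4288 CPM with phenylephrine, 5836, 5912 and 6036 CPM with IGF1 and 6436, 6648 and 6379 CPM with vehicle. It was below vehicle with both and lower with phenylephrine (1.40-fold higher with IGF1, adjusted p = 2.49e-07). Hrc and Trdn, proteins of the calcium store, were 3.22- and 2.05-fold higher with IGF1, and the calcium channel gene Cacna1c 1.52-fold. Slc8a1, the sodium-calcium exchanger, was higher with phenylephrine at 2102, 2183 and 2107 CPM against 1664, 1420.5 and 1400.1 CPM (1.43-fold). Of 19 potassium and sodium channel genes 12 were called higher with IGF1 and 1 with phenylephrine (14 and 2 without), at a median log2 of -0.62 (-0.68). Scn4b, a sodium channel beta subunit, was at 8.59, 9.18 and 10.3 CPM against 27.8, 33.4 and 34.5 CPM (3.41-fold), the pacemaker channel gene Hcn4 was 2.22-fold, the inward rectifier Kcnj2 2.11-fold and the hERG-type channel Kcnh2 1.80-fold higher with IGF1. Against vehicle, 14 of these 19 were called lower and 2 higher with phenylephrine (background 28.9% and 27.9%), and 6 lower and 5 higher with IGF1 (background 23.4% and 24.7%). Without IGF1 replicate 1, the last count was 6 and the others stood as given. With IGF1 replicate 1 left out, the fold became 1.41 for Atp2a2, 3.39 for Hrc, 2.13 for Trdn, 1.55 for Cacna1c, 1.51 for Slc8a1, 3.62 for Scn4b, 2.32 for Hcn4, 2.34 for Kcnj2 and 1.86 for Kcnh2.

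Among 8 sodium pump genes, 3 were called in each direction (4 and 4 without IGF1 replicate 1). The pump regulator Fxyd5 was on the phenylephrine side at 15.9, 17.9 and 17.2 CPM against 4.28, 4.04 and 4.11 CPM (4.11-fold). Of 7 creatine and phosphagen genes, 6 were called higher with IGF1 and 0 with phenylephrine (6 and 1 without), at a median log2 of -0.87 (-0.77). Ckm, the muscle creatine kinase, was at 488, 497 and 491 CPM against 1219, 1114 and 1187 CPM (2.39-fold), its vehicle level of 1038 CPM being nearer to IGF1. On dropping IGF1 replicate 1 the fold differences were 4.17 for Fxyd5 and 2.34 for Ckm.

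Fuel oxidation genes were lower with phenylephrine than with IGF1. Of 29 genes of fatty acid uptake and oxidation, 25 were called higher with IGF1 and 1 with phenylephrine, with and without IGF1 replicate 1, at a median log2 of -0.50 (-0.49). Hadh, a beta-oxidation dehydrogenase, was at 51.1, 52.9 and 51.4 CPM with phenylephrine, 137, 159 and 161 CPM with IGF1 and 132, 134 and 145 CPM with vehicle. IGF1 was close to vehicle and phenylephrine far below both, and the difference between the stimuli was 2.94-fold (adjusted p = 3.18e-11). Acaa2, the last enzyme of the cycle, was 2.32-fold and the acyl-CoA synthetase Acsl1 2.24-fold higher with IGF1. Against vehicle, 26 of the 29 were called lower and 1 higher with phenylephrine (background 28.9% and 27.9%), while 12 were higher and 8 lower with IGF1 (background 24.7% and 23.4%; 14 and 9 without IGF1 replicate 1). The gene called on the phenylephrine side was Pparg, at 0.996, 1.41 and 0.905 CPM against 0.560, 0.677 and 0.524 CPM. Its call was lost without phenylephrine replicate 2 or IGF1 replicate 3 (adjusted p = 0.133 and 0.0920), and with scaling by library totals (adjusted p = 0.0528). The same folds without IGF1 replicate 1 were 3.09 for Hadh, 2.33 for Acaa2 and 2.28 for Acsl1.

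Of 21 TCA cycle genes 19 were called higher with IGF1 and 0 with phenylephrine (20 and 0 without IGF1 replicate 1), at a median log2 of -0.35 (-0.33). Mdh1, the cytosolic malate dehydrogenase, was at 951, 899 and 916 CPM against 1514, 1431 and 1457 CPM (1.59-fold) and Idh3g, an isocitrate dehydrogenase subunit, was 1.49-fold higher. Against vehicle, 20 of the 21 were called higher and 0 lower with IGF1 (background 24.7% and 23.4%), and 7 were higher and 6 lower with phenylephrine (background 27.9% and 28.9%; 7 and 7 without IGF1 replicate 1). Of 42 respiratory chain and ATP synthase genes 29 were called higher with IGF1 and 1, Ndufb9, with phenylephrine (28 and 5 without), at a median of -0.25 (-0.18). Against vehicle, 36 of the 42 were called higher and 0 lower with IGF1 (background 24.7% and 23.4%). With phenylephrine, 13 were called higher and 5 lower than vehicle (background 27.9% and 28.9%). Without IGF1 replicate 1 these counts were 37 and 1, and 27 and 7. Atp5g1, a subunit of the rotor ring, was at 313, 311 and 302 CPM against 603, 468 and 505 CPM (1.70-fold) and Cox8b, of cytochrome oxidase, at 150.5, 146 and 145 CPM against 235, 244 and 257 CPM (1.67-fold). Mitochondrial ribosome genes differed little. Of 42, 15 were called higher with IGF1 and 3 with phenylephrine (15 and 9 without, and 27 with IGF1 under scaling by library totals), at a median of -0.10 (-0.07), with Mrpl19 the farthest on the IGF1 side at 1.3-fold. Leaving out IGF1 replicate 1 put the fold at 1.57 for Mdh1, 1.47 for Idh3g, 1.58 for Atp5g1, 1.71 for Cox8b and 1.26 for Mrpl19.

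Glucose genes were uneven. Of 25 genes of glucose uptake and glycolysis, 13 were called higher with IGF1 and 3 with phenylephrine (13 and 6 without IGF1 replicate 1), at a median log2 of -0.25 (-0.19). Slc2a4, the insulin-responsive transporter GLUT4, was at 29.8, 30.3 and 34.1 CPM with phenylephrine, 85.1, 101 and 95.1 CPM with IGF1 and 75.7, 75.1 and 76.8 CPM with vehicle (2.98-fold, adjusted p = 5.4e-11). The aldolase isoform Aldoc was 3.08-fold, the muscle phosphofructokinase Pfkm 2.10-fold and the muscle phosphoglycerate mutase Pgam2 2.86-fold higher with IGF1. The platelet-type phosphofructokinase Pfkp went the other way, at 683, 715 and 705 CPM against 456, 311 and 305 CPM (1.96-fold higher with phenylephrine; 2.28-fold without), so the 2 phosphofructokinase genes went opposite ways. Gapdh, often used as a reference gene, was itself 1.28-fold higher with IGF1 (adjusted p = 4.45e-05). In the fit lacking IGF1 replicate 1, folds were 3.11 for Slc2a4, 3.24 for Aldoc, 2.18 for Pfkm, 2.98 for Pgam2 and 1.22 for Gapdh.

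Cholesterol synthesis genes, targets of the SREBP2 factor, were higher with phenylephrine. Of 25 tested, 23 were called higher with it and 0 with IGF1 (24 and 0 without IGF1 replicate 1), at a median log2 of 0.68 (0.74). Fdps, farnesyl diphosphate synthase, was at 635, 623 and 615 CPM with phenylephrine, 249.6, 171 and 171 CPM with IGF1 and 113, 115 and 117 CPM with vehicle. Both agents lay above vehicle, and phenylephrine was 3.17-fold above IGF1 (adjusted p = 5.31e-05; 3.65-fold without). Idi1, an isomerase of the same pathway, was at 444, 447 and 421 CPM against 193, 153 and 145 CPM (2.68-fold). Hmgcs1, an HMG-CoA synthase, was 2.21-fold higher. Against vehicle, 24 of 25 were called higher with phenylephrine (background 27.9%) and 22 with IGF1 (background 24.7%; 23 without IGF1 replicate 1), and 0 lower with either. Fatty acid synthesis genes were split, 7 of 16 on the phenylephrine side and 5 on the IGF1 side, with and without IGF1 replicate 1. Fasn, the fatty acid synthase, was 1.58-fold higher with phenylephrine, the desaturase Scd1 1.66-fold (at 99.5, 98.0 and 105 CPM against 78.0, 52.2 and 52.5 CPM), and its near copy Scd2 1.38-fold higher with IGF1 (at 1184, 1187 and 1289 CPM against 1835, 1610.5 and 1611 CPM). Reads of the Scd pair may be shared, so their opposite directions are uncertain. Once IGF1 replicate 1 was left out, the fold was 2.94 for Idi1, 2.42 for Hmgcs1, 1.59 for Fasn, 1.93 for Scd1 and 1.32 for Scd2.

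Genes that supply amino acids and ribosomes were on the phenylephrine side. Of 31 ATF4 targets and amino acid supply genes 24 were called higher with phenylephrine and 3 with IGF1 (25 and 3 without IGF1 replicate 1), at a median log2 of 0.58 (0.67). Atf4, the stress-induced factor itself, was at 554, 541 and 526 CPM with phenylephrine, 418, 292 and 289 CPM with IGF1 and 317, 314 and 315 CPM with vehicle (1.62-fold; 1.86-fold without). Pycr1, an enzyme of proline synthesis, was at 23.3, 21.9 and 21.1 CPM against 8.59, 6.96 and 5.39 CPM (3.2-fold, adjusted p = 8.24e-08), and Slc3a2, the heavy chain of the leucine transporter, at 439, 431 and 409 CPM against 183, 149.6 and 154 CPM (2.63-fold). Asns, asparagine synthetase, and Shmt2, which makes mitochondrial glycine, were 2.40- and 2.21-fold higher. Psat1, of serine synthesis, was on the IGF1 side at 30.8, 28.6 and 29.2 CPM against 41.4, 44.6 and 43.9 CPM (1.47-fold). With IGF1 replicate 1 left out, the fold became 3.58 for Pycr1, 2.81 for Slc3a2, 3.04 for Asns, 2.70 for Shmt2 and 1.5 for Psat1.

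The Pycr1 promoter is shown for TGATGCAA, a letter form of the CEBP-ATF response element, in capitals (GRCr8, chr10:106420763-106421062, minus strand).
Pycr1: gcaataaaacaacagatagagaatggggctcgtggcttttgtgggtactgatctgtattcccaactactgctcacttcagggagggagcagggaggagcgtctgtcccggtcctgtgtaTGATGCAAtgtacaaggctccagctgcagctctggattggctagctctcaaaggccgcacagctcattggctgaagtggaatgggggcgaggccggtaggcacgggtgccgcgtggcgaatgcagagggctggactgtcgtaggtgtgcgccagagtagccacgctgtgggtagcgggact
The motif was in 21.4% of 28 matched promoters of this list (Pycr1, Chac1, Slc1a4, Aars, Nars and Mars) and in 0.576% of all matched promoters. Of 28 ribosome biogenesis genes 24 were called higher with phenylephrine and 0 with IGF1 (26 and 0 without IGF1 replicate 1), at a median log2 of 0.34 (0.43). Ppan, a factor of the large ribosomal subunit, was 1.78-fold higher, at 32.8, 32.7 and 30.6 CPM against 21.7, 15.4 and 17.3 CPM. On dropping IGF1 replicate 1 the fold difference was 1.96 for Ppan.

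Protein folding genes were likewise called more often on the phenylephrine side. Of 24 ER chaperones 16 were called higher with phenylephrine and 0 with IGF1 (17 and 2 without IGF1 replicate 1, and 9 and 2 with scaling by library totals), at a median log2 of 0.18 (0.21). Atf6, a sensor of the unfolded protein response, was 1.70-fold higher at 90.9, 92.8 and 93.7 CPM against 51.2, 56.2 and 55.4 CPM, and Hspa5, the chaperone BiP, 1.28-fold. Of 19 cytosolic heat shock genes 11 were called higher with phenylephrine and 2 with IGF1 (15 and 2 without, and 4 with IGF1 under scaling by library totals). The median log2 was 0.41 (0.51). Hspb1, a small heat shock protein, was at 783, 847 and 816 CPM against 538, 360.1 and 362 CPM (1.94-fold) and Cryab, the alpha-B crystallin of muscle, was 1.77-fold higher (2.26- and 2.03-fold without). The same folds without IGF1 replicate 1 were 1.66 for Atf6 and 1.32 for Hspa5.

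Among 26 glutathione and NRF2 genes 16 were called higher with phenylephrine and 4 with IGF1 (16 and 6 without, and 8 with IGF1 under scaling by library totals). The median log2 was 0.21 (0.20). Gstp1, a glutathione transferase, was at 414, 392 and 382 CPM with phenylephrine, 135, 148 and 144 CPM with IGF1 and 387, 359 and 350.2 CPM with vehicle, so that IGF1 lay below both (2.78-fold, adjusted p = 1.06e-11). Srxn1, Txnrd1 and Nqo1, further NRF2 targets, were 2.70-, 1.98- and 1.72-fold higher with phenylephrine. The mitochondrial dismutase Sod2 was on the IGF1 side (1.33-fold). Of 10 hexosamine and O-GlcNAc genes 4 were called higher with phenylephrine and 1 with IGF1 (5 and 2 without), the transferase Ogt being lower with phenylephrine at 201, 210.5 and 213 CPM against 241, 268 and 265 CPM (1.24-fold higher with IGF1). Of 15 clock genes 6 and 4 were called (5 and 5 without). Leaving out IGF1 replicate 1 put the fold at 2.71 for Gstp1, 2.54 for Srxn1, 1.93 for Txnrd1, 1.66 for Nqo1, 1.33 for Sod2 and 1.28 for Ogt.

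TGF-beta and BMP genes were higher with phenylephrine. Of 21, 19 were called higher with it and 0 with IGF1 (19 and 1 without IGF1 replicate 1), at a median log2 of 0.90 (0.96). Against vehicle, 15 of the 21 were called higher and 3 lower with phenylephrine (background 27.9% and 28.9%). With IGF1, 0 were called higher and 11 lower than vehicle (background 24.7% and 23.4%). Without IGF1 replicate 1 these counts were 16 and 4, and 0 and 17. Id1, a BMP target, was at 47.1, 46.0 and 48.9 CPM with phenylephrine, 15.7, 11.9 and 13.0 CPM with IGF1 and 13.8, 15.1 and 13.5 CPM with vehicle (3.52-fold, adjusted p = 2.27e-10). Bmp2 was at 9.14, 12.2 and 15.2 CPM against 3.88, 2.62 and 2.66 CPM (4.05-fold) and the ligand gene Tgfb2 at 446, 466 and 476 CPM against 251, 84.1 and 86.4 CPM. Tgfb2 was 3.31-fold higher (adjusted p = 0.0165; 5.43-fold without IGF1 replicate 1), but not called in the 6 samples alone (adjusted p = 0.0591). The inhibitory SMAD gene Smad7 was 2.33-fold higher. Endothelial markers were on the same side in the direct comparison, 6 of 10 being called higher with phenylephrine and 0 with IGF1. This held with and without IGF1 replicate 1, and Egfl7 (2.99-fold) and Kdr (2.17-fold) led them. Against vehicle, 2 of these markers were called higher and 1 lower with phenylephrine, and 0 higher and 7 lower with IGF1. Without IGF1 replicate 1 these counts were 2 and 3, and 0 and 7. The 10 markers summed to 175.6 to 197.0 CPM with vehicle, 196.6 to 211.8 CPM with phenylephrine and 123.0 to 125.3 CPM with IGF1, and none was at 0. Kdr was at 25.3, 26.2 and 34.0 CPM, 11.2, 14.4 and 13.6 CPM and 44.4, 49.1 and 40.5 CPM with phenylephrine, IGF1 and vehicle, lowest with IGF1. The part of these cells in the result was not tested. In the fit lacking IGF1 replicate 1, folds were 3.79 for Id1, 4.61 for Bmp2, 2.31 for Smad7, 3.17 for Egfl7 and 2.04 for Kdr.

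Matrix genes went both ways. Of 30, 15 were called higher with phenylephrine and 10 with IGF1 (15 and 12 without IGF1 replicate 1). Thbs1, an activator of TGF-beta, was at 854, 897 and 891 CPM against 314, 248 and 267 CPM (3.19-fold), the protease inhibitor Timp1 was 2.78-fold higher, and the basement membrane collagen Col4a1 2.19-fold. The fibrillar collagen Col3a1 and the matricellular gene Postn were higher with IGF1, Col3a1 at 1046, 1114 and 1035 CPM against 1914, 2142 and 2267 CPM and 1529, 1477 and 1308 CPM with vehicle (1.98-fold), and Postn at 387, 393 and 378 CPM against 749, 774 and 792 CPM (2.0-fold). Of the 10 fibroblast markers, 3 were called higher with IGF1, 1 with phenylephrine and 6 neither (4 and 1 called without IGF1 replicate 1), at a median log2 of 0.05 (-0.0065 without). Lum and Dpt, on the IGF1 side, were 1.75- and 1.70-fold higher, and the part of fibroblasts in these values was not tested. Once IGF1 replicate 1 was left out, the fold was 3.42 for Thbs1, 2.87 for Timp1, 2.25 for Col4a1, 2.07 for Col3a1, 2.03 for Postn, 1.82 for Lum and 1.86 for Dpt.

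Of 17 SRF targets and smooth muscle genes, 9 were called higher with phenylephrine and 5 with IGF1, with and without IGF1 replicate 1. The median log2 was 0.20 (0.19). Cnn1, the smooth muscle calponin, was at 182, 181 and 192 CPM with phenylephrine, 76.0, 29.8 and 31.1 CPM with IGF1 and 33.1, 31.6 and 33.7 CPM with vehicle. IGF1 replicate 1 was the sole IGF1 sample above vehicle, and the difference was 4.11-fold with it and 6.07-fold without (adjusted p = 0.00362 and 6.41e-37). Smtn, smoothelin, and Myl9, a regulatory light chain, were 2.03- and 1.51-fold higher with IGF1. Smooth muscle and pericyte markers, which include Cnn1 and Des, were called higher with phenylephrine in 7 of 10 and higher with IGF1 in 2, with and without IGF1 replicate 1. Among the 7, Rgs5 lost its call in several alternatives, such as without IGF1 replicate 3 (adjusted p = 0.202) or by DESeq2 (adjusted p = 0.0511). These 10 markers summed to 3512 to 3584 CPM with vehicle, 7124 to 7371 CPM with phenylephrine, and 5530, 3712 and 3799 CPM in IGF1 replicates 1, 2 and 3, with none at 0. Myh11, the smooth muscle myosin, was among the markers called higher with IGF1, at 116, 121 and 117 CPM against 135, 139.5 and 141 CPM (1.17-fold). The part of such cells in the result was not tested. With IGF1 replicate 1 left out, the fold became 2.12 for Smtn, 1.33 for Myl9 and 1.19 for Myh11.

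Interferon response genes varied between samples of a group. They summed to 494.2, 873.7 and 489.8 CPM in IGF1 replicates 1, 2 and 3. The sums were 323.2 to 367.9 CPM with phenylephrine and 456.3 to 682.8 CPM with vehicle. IGF1 replicates 1 and 3 thus lay within the vehicle range. Of 25 interferon response genes, 9 were called higher with IGF1 and 0 with phenylephrine (9 and 1 without IGF1 replicate 1) at a median log2 of -0.91 (-1.05). The count on the IGF1 side was 5 without phenylephrine replicate 1 or 3, 14 without IGF1 replicate 3, and 14 by DESeq2 or with scaling by library totals. Ifi44 was at 4.91, 5.31 and 4.56 CPM with phenylephrine, 15.1, 39.6 and 14.9 CPM with IGF1 and 9.91, 8.87 and 22.1 CPM with vehicle, IGF1 replicate 2 and vehicle replicate 3 being the highest of their groups. It was 4.73-fold higher with IGF1 (adjusted p = 0.0189) and not called without phenylephrine replicate 1, 2 or 3 (adjusted p 0.0560 to 0.0619) or by limma-voom (adjusted p = 0.0767). On dropping IGF1 replicate 1 the fold difference was 5.51 for Ifi44.

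Cardiac transcription factors showed a few clear differences. Of 19, 3 were called higher with phenylephrine and 8 with IGF1 (4 and 9 without IGF1 replicate 1). Irx4, a ventricular identity factor, was at 68.0, 67.4 and 67.0 CPM with phenylephrine, 189, 209.6 and 216 CPM with IGF1 and 146, 148 and 147 CPM with vehicle. It lay below vehicle in every phenylephrine sample and above it in every IGF1 sample (3.04-fold, adjusted p = 3.5e-12; 3.15-fold without). Hopx, a cofactor of cardiac differentiation, was 2.38-fold and Smyd1, a muscle methyltransferase, 1.63-fold higher with IGF1. Gata4, an activator of Nppa and other growth genes, was at 624, 646 and 649.6 CPM against 508, 383 and 394 CPM (1.49-fold higher with phenylephrine; 1.65-fold without), and the SRF cofactor Myocd was 1.5-fold higher. The same folds without IGF1 replicate 1 were 2.28 for Hopx, 1.68 for Smyd1 and 1.56 for Myocd.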

How the data were processed

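Values as deposited are whole-number counts of reads for each gene, not normalized. Per the submitters' processing notes, STAR, HTSeq, DESeq and the rn5 build were used, with roles, versions and strand use not given in the sources used here. Per the labels' protocols, libraries were made from total RNA (NuGEN Ovation) and read on a NovaSeq. The table has 17327 rows, of which 26 are gene names turned into calendar dates and are not named.

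Genes were filtered with filterByExpr (minimum count 10, minimum total count 15), leaving 11873 with 99.99% of counts. Counts were scaled by TMM and fitted over 3 groups in edgeR 4.0.16 (R 4.3.3, robust quasi-likelihood F test). P-values were adjusted by Benjamini-Hochberg over all tested genes, with a threshold of 0.05. Unless another is named, every adjusted p is from this test. SE is the absolute log2 fold change over the square root of F. Alternatives were DESeq2 1.42.0, limma-voom 3.58.1, other scalings, filters and thresholds, a replicate block, the 6 samples alone and each sample left out. On simulated counts of 11789 genes, the test recovered 60.4%, 78%, 93.9% and 96% of genes changed 1.25-, 1.5-, 2- and 3-fold, with 8 false among 170 calls. In the simulation few genes were changed and no IGF1 library stood apart, unlike in these data. Its rates therefore cannot be taken as those of this comparison.

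The members of the comparison, the lists, tests and naming rule were chosen with earlier results of these data known. The rule took the 12 largest rises and 12 largest falls with no overlap, calls with and without IGF1 replicate 1 and at least 5 CPM in a group, the 6 and 6 largest level differences, up to 4 members of each list, 20 fixed genes and the 8 genes in which IGF1 replicate 1 was farthest from its group. Other genes named from the lists, such as Fos, Dusp6, Top2a and Hmgcs1, were chosen after their values were seen. Promoters were matched by symbol for 8976 tested genes and by synonym for 576, with 2321 unmatched. Motifs searched on both strands were CCAAT and TTTGAA of mitotic promoters, TGATGCAA of ATF4 targets, TTTGGCGC and TTTCGCGC of E2F targets, and the CArG box, besides AP-1, CRE and SREBP forms not described here. Some genes are not reported here. Genes with near-identical copies and genes that overlap others can have misassigned reads.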

Additional observations from a re-analysis of the deposited data

How the results depend on the processing

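Beside the 3215 and 3222 genes called higher with phenylephrine and with IGF1, leaving out single libraries gave 2794 to 3662 and 2876 to 3638, and the counts over the gene lists (290 and 291) stayed within 1.5 times under each alternative run for them. Scaling by library totals gave 2132 on the phenylephrine side, and testing against a 1.2-fold change gave 1409 and 1659. DESeq2 gave 3255 and 3178, limma-voom 3240 and 3150, and an adjusted p of 0.01 2512 and 2517. The replicate number as a block gave 3167 and 3145. Deviations of same-numbered phenylephrine and IGF1 samples correlated at -0.022, 0.017 and 0.021, and those of differently numbered samples at -0.0359 to 0.0185. The numbers were not taken to pair samples. These values cannot settle whether samples were paired, since IGF1 replicate 1 stood apart and enters every IGF1 deviation. Of 228 genes taken by the naming rule or added to it 212 were called, and 189 kept direction and call under each of 17 alternatives that tested them. Directions reversed for Acta1 (1.31 without IGF1 replicate 1, -0.20 and -0.19 without replicate 2 or 3), Sypl2 (1.07 to -0.76 on leaving out single libraries, 0.030 with the block, 0.39 by limma-voom), Myh3 (1.57 to -0.92, 0.056 and 0.72 in the same order) and Tceal7 (0.70 to -1.26, and 0.0021 by limma-voom), where 1 IGF1 library was far from the others. Since 1 CPM stood for 29.1 to 51.6 reads, genes near that level, such as Pparg, carry wide counting error.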
